A study of Mus musculus with 24 samples.

Results

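The genes described are the 36 mouse genes, of 54532 in the count table, that make bile acids in the liver, carry them and other organic anions and cations across the hepatocyte membrane, or set the rate of both. They were listed by known function, with earlier results of these data known, in 5 roles: 9 for synthesis and conjugation, 9 for uptake and exchange at the sinusoidal (blood) side, 6 for export at the sinusoidal side, 7 for the canalicular (bile) side and 5 regulators and receptors. They were measured by RNA-seq in the liver after a 24 h fast, in 24 male mice of 8 to 10 weeks (the age given in the methods), with 4 livers in each of 6 groups. ff;ff mice carried floxed Rab30 and floxed Cpt2 without Cre and were the control littermates of DKO mice, which carried the same floxed alleles with albumin-Cre. Rab30 L-/- and Cpt2 L-/- mice lacked Rab30 or Cpt2 in hepatocytes by albumin-Cre. In Rab30KO mice exon 4 of Rab30 was absent from all tissues, and Rab30 Ctrl were their wild-type littermates. The labels name no littermates for Rab30 L-/- or Cpt2 L-/- mice, so genotype and litter cannot be told apart in comparisons with these groups. Rab30 encodes a small GTPase of the Golgi. Cpt2 encodes carnitine palmitoyltransferase 2, which mitochondria need to oxidise long-chain fatty acids, so hepatocytes without it cannot burn the long-chain fats that reach them in a fast. No group was fed, and each value below comes from whole liver.

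Hepatocytes turn cholesterol into bile acids by a classic route that starts with Cyp7a1 and an alternative route that uses Cyp27a1 and Cyp7b1. The steroid nucleus is then modified by Hsd3b7, Cyp8b1 and Akr1d1, and the acid is joined to taurine or glycine by Slc27a5 and Baat. Bile acids returning from the gut are taken up from portal blood, mainly by the sodium-dependent carrier Slc10a1 (NTCP) and the organic anion carriers of the Slco family, and are pumped into bile by Abcb11 (BSEP). The nuclear receptor Nr1h4 (FXR) senses bile acids and induces Nr0b2 (SHP), a partner that represses Cyp7a1 and Cyp8b1, whose promoters the receptor Nr5a2 (LRH-1) activates. A second brake comes from the gut hormone Fgf15, read by Fgfr4 with its coreceptor Klb.

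Library totals ranged from 11801027 to 24497738 counts with a median of 14358966, and every pair of libraries within a group differed by more than counting noise. Each library carries its own number in the labels and was taken as 1 mouse. Whole-gene counts of Cpt2 and Rab30 did not follow the labels in every comparison. Cpt2 was lower in DKO than in Rab30 L-/- libraries without overlap (log2 fold change -1.07, adjusted p = 4.49e-04), and Rab30 changed by -1.10 (adjusted p = 0.174) between Rab30 L-/- and ff;ff. In counts scaled to library size, Cpt2 ran from 96.1 to 120 in DKO, 170 to 268 in Rab30 L-/- and 128 to 139 in ff;ff livers. The Rab30 L-/- livers thus lay above ff;ff for Cpt2. Cpt2 changed by -0.07 on the log2 scale between the libraries labelled Cpt2 L-/- and ff;ff (adjusted p = 0.788) and Rab30 changed by -0.34 between Rab30KO and Rab30 Ctrl (adjusted p = 1.0) and 0.15 between DKO and Cpt2 L-/- (adjusted p = 0.763). Rab30 was higher in Cpt2 L-/- than in ff;ff (log2 fold change 1.99, adjusted p = 2.66e-05) and in DKO than in Rab30 L-/- (log2 fold change 3.23, adjusted p = 3.25e-04). Such a count includes exons outside the deleted one and so checks no deletion, and each group name below means the libraries labelled so. Hepatocyte markers (Alb, Ttr, Apoa1, Cps1, Serpina1c and Tat) summed to 93139 to 125803 CPM (counts scaled to library size) in ff;ff, 75219.8 to 90738 in Rab30 L-/-, 44163 to 52864 in Cpt2 L-/- and 58407 to 70561 in DKO livers, so hepatocyte RNA was plain in every library. Most of each sum was Alb, with means of 83067 ± 10091, 59230.1 ± 5547, 31608 ± 4543 and 45805 ± 5999 CPM (SD, n = 4) in that order. The lowest sum, in Cpt2 L-/-, followed Alb. The means of Apoa1 and Serpina1c were lower in DKO than in Cpt2 L-/- livers. In bulk liver, fewer cells of a type and less RNA per cell cannot be told apart, and the part of this shift in the results below was not tested.

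Levels between genes were compared per length, as FPKM (fragments scaled to gene length and library size). In ff;ff livers the highest group means among the 36 genes were those of Slc27a5 at 476 FPKM, Cyp8b1 at 372, Cyp27a1 at 299 and Slc10a1 at 273 FPKM. The canalicular pumps were lower, with Abcc2 (MRP2) at 98.3 FPKM, Abcb11 at 55.9 and Abcb4 (MDR3 in human) at 46.0. Slc51a and Slc51b, the pair that forms the basolateral bile acid exporter of the ileum, reached at most 0.377 and 1.30 CPM in any of the 24 livers, were at 0 in others, and entered no test. Hsd3b7 had at most 2.72 CPM in any liver, and 62.0% of its exonic bases also belong to the overlapping gene Gm49388 on the same strand, so its low count need not be its level. Abcb1a and Abcb1b, and Slco1a1 and Slco1a4, are close paralogs whose reads may have been shared out between them, and their separate values are uncertain to that extent.

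The comparison of Cpt2 L-/- with ff;ff livers asks what hepatocyte loss of Cpt2 did to these genes during a fast. Of the 34 genes with enough counts to test, 18 fell and 2 rose, and the median log2 fold change was -0.67. A gene was called when its adjusted p was under 0.05 and its change at least 1.2-fold in edgeR's quasi-likelihood test. Over all 13270 genes tested, 11.9% were called lower and 11.9% called higher, with a median log2 fold change of -0.00. By role, 7 of 9 synthesis genes, 6 of 9 uptake genes, 2 of 7 canalicular genes and 3 of 5 regulators fell, while 1 of 7 canalicular genes and 1 of the 4 exporters tested rose.

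Akr1d1 (Δ4-3-oxosteroid 5β-reductase, which gives bile acids their bent A/B ring junction; ENSMUSG00000038641, chromosome 6 from 37530173 to 37568815, plus strand, build GRCm38 throughout) was measured at 275, 231, 197 and 206 CPM in the ff;ff livers and at 14.1, 13.8, 7.06 and 5.62 CPM in the Cpt2 L-/- livers. The groups were far apart, and the log2 fold change of -4.49 (SE 0.31, adjusted p = 2.26e-06), or 22.5-fold, was the largest fall among the genes described. Cyp7a1 (ENSMUSG00000028240, chromosome 4 from 6265612 to 6275633, minus strand), the rate-limiting 7α-hydroxylase of the classic route, stood at 313, 128, 51.5 and 108 CPM in ff;ff and 7.69, 30.7, 11.7 and 4.93 CPM in Cpt2 L-/-. Every Cpt2 L-/- liver lay below every ff;ff liver, by -3.46 (SE 0.79, adjusted p = 0.0187) on the log2 scale, although both groups spread widely around their means of 150.1 ± 113 and 13.7 ± 11.6 CPM (SD, n = 4). With the library Cpt2164 or the library Cpt2801 left out, Cyp7a1 was no longer called, the adjusted p ranging over 0.00663 to 0.0577 across the 8 fits with 1 library left out and the log2 fold change over -4.23 to -2.81. Those ends came without ffff238 (-2.81) and without Cpt2166 (-4.23).

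The alternative route fell as well. Cyp7b1 (ENSMUSG00000039519, chromosome 3 from 18071950 to 18243338, minus strand), the oxysterol 7α-hydroxylase, gave 393, 189.5, 222 and 133 CPM in ff;ff and 37.2, 62.3, 52.8 and 39.8 CPM in Cpt2 L-/- livers, a change of -2.30 (SE 0.31, adjusted p = 3.30e-04). Cyp27a1 (ENSMUSG00000026170, chromosome 1 from 74713574 to 74737892, plus strand), the mitochondrial sterol 27-hydroxylase, gave 595, 609, 789 and 556 CPM and 416, 402, 409 and 318 CPM in the same order, a smaller change of -0.73 (SE 0.16, adjusted p = 0.00516). Neither gene's groups overlapped, as for 26.7% of all genes in this comparison. Cyp39a1, a 24-hydroxycholesterol 7α-hydroxylase, fell by 1.42 on the log2 scale (adjusted p = 0.00744). Of the conjugating enzymes, the bile acid CoA ligase Slc27a5 changed by -1.32 (adjusted p = 5.72e-05) and the amino acid transferase Baat by -0.84 (adjusted p = 0.00509).

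Cyp8b1 (ENSMUSG00000050445, chromosome 9 from 121914356 to 121916305, minus strand), the 12α-hydroxylase that makes cholic acid, was not called. Its values were 657, 1085, 563 and 541 CPM in ff;ff and 895, 874, 931 and 893 CPM in Cpt2 L-/- livers, with a log2 fold change of 0.32 (adjusted p = 0.306) and a 95% confidence interval of -0.14 to 0.78. The 4 Cpt2 L-/- values lay within the range of the ff;ff values, and their mean was 899 ± 23.9 CPM (SD, n = 4) against 712 ± 254. Hsd3b7 was also without a call at 0.64 (adjusted p = 0.368).

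**Figure D1:**
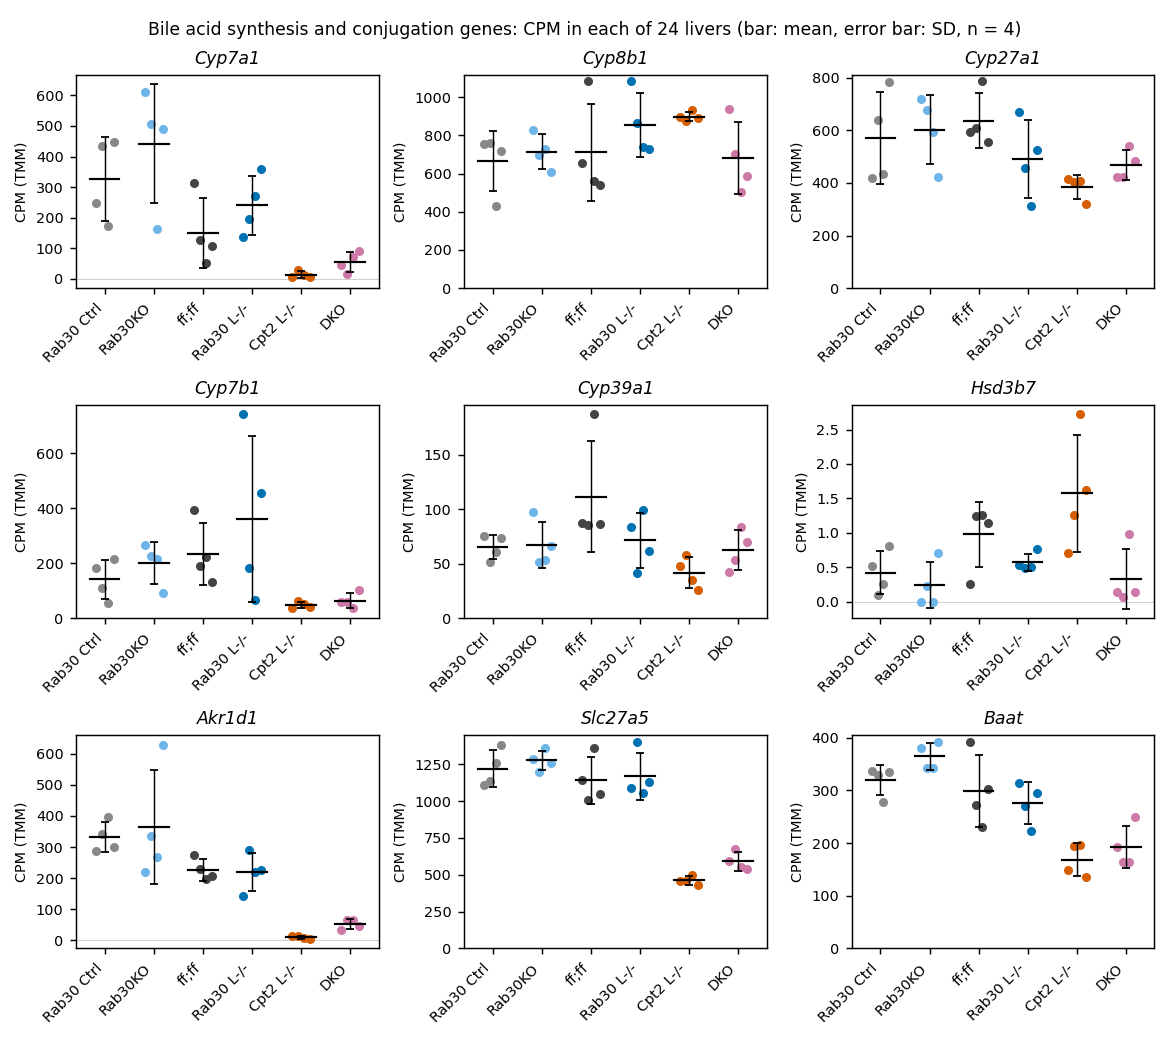
Each panel plots 1 of the 9 synthesis and conjugation genes as CPM scaled by TMM (linear axis) against the 6 genotype groups, with a point for each of 4 livers, a bar at the mean and an error bar of 1 SD. Akr1d1 lies at 5.62 to 14.1 CPM in Cpt2 L-/-, 33.6 to 67.0 CPM in DKO and 197 to 275 CPM in ff;ff livers, whereas the Cyp8b1 points of Cpt2 L-/- and ff;ff overlap.

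The start regions of 4 genes are shown because they set side by side the steepest faller among the enzymes (Akr1d1), the steepest among the regulators (Nr0b2), the steepest on the canalicular membrane (Abcb11) and a synthesis enzyme that was not called (Cyp8b1). Each is the 250 bases before the annotated start in RefSeq on GRCm38.p6, read 5′ to 3′ on the strand of the gene. Capitals mark a match to CAAGGNCA, the half-site bound by Nr5a2, or to GGNCA, 1 base of any kind and TGANC, an inverted repeat of the type bound by Nr1h4 with its partner Rxra. These motifs were searched on both strands with overlaps allowed, and were chosen because both receptors are among the 36 genes and after other letter patterns had been looked at in these windows. The regions lie at chr6:37529923-37530172, plus strand (Akr1d1), chr4:133553126-133553375, plus strand (Nr0b2), chr2:69342617-69342866, minus strand (Abcb11) and chr9:121916306-121916555, minus strand (Cyp8b1).
Akr1d1: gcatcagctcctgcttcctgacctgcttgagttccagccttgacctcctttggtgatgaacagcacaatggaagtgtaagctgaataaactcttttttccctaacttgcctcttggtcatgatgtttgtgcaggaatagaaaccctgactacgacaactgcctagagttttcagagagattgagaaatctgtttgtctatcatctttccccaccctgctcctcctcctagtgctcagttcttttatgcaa
Nr0b2: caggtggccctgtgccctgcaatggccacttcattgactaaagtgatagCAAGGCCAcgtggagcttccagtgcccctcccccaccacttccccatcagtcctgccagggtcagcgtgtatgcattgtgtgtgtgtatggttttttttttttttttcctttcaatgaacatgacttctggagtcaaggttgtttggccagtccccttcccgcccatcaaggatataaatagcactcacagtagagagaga
Abcb11: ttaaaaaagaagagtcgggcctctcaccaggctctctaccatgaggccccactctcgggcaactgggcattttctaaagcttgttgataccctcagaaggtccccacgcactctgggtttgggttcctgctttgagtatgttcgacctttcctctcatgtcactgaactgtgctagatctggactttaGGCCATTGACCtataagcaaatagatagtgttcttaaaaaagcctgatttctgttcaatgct
Cyp8b1: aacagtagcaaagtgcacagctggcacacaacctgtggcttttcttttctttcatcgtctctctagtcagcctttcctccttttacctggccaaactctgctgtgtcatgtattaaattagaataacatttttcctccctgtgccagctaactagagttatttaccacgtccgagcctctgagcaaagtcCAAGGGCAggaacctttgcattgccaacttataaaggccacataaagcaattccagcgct

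The Abcb11 window held 1 match to the Nr1h4 inverted repeat, 62 bases before the start, and the Nr0b2 and Cyp8b1 windows held 1 match each to the Nr5a2 half-site, 201 and 60 bases before it. The Akr1d1 window held neither string of letters. Over the same 250-base region of all genes in the table, 5.53% of 32851 windows held the Nr5a2 half-site and 0.935% held the inverted repeat. Windows were at hand for 26 of the 36 genes, 33 in all, of which 4 held the half-site (in Abcg2, Cyp8b1, Nr0b2 and Slc51a) and 2 the inverted repeat (in Abcb11 and Slco1b2). Cyp8b1 and Nr0b2 thus share a matched motif and differed in their change, Nr0b2 being called lower and Cyp8b1 not called in Cpt2 L-/- livers. A match is a description of letters and not of binding.

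At the sinusoidal membrane, Slc10a1 (ENSMUSG00000021135, chromosome 12 from 80953183 to 80968705, minus strand) had 746, 589, 443 and 579 CPM in ff;ff and 314, 305, 243 and 245 CPM in Cpt2 L-/- livers. The groups did not overlap and differed by -1.10 (SE 0.18, adjusted p = 7.24e-04), or 2.15-fold. Slco1a1 (ENSMUSG00000041698, chromosome 6 from 141907282 to 141946962, minus strand), an organic anion carrier, had 202, 122, 97.2 and 78.1 CPM and 29.4, 40.3, 46.7 and 51.5 CPM, a log2 change of -1.59 (SE 0.28, adjusted p = 0.00157) with no overlap. Slco1b2 (ENSMUSG00000030236, chromosome 6 from 141629518 to 141686646, plus strand), the only mouse member of the OATP1B group, had 1263, 858, 561 and 825 CPM and 787, 625, 578 and 464 CPM. The Slco1b2 groups overlapped and the gene was not called, at -0.53 (adjusted p = 0.129) with an interval of -1.04 to -0.01. Slco1a1, Slco1a4 and Slco1b2 lie beside each other on chromosome 6.

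Slc22a30, an organic anion carrier of the Slc22 family, showed the steepest fall among the uptake genes, from 90.8, 53.1, 27.4 and 56.0 CPM in ff;ff to 7.62, 8.18, 7.77 and 8.31 CPM in Cpt2 L-/- livers (log2 fold change -2.84, SE 0.30, adjusted p = 4.29e-05). The 4 Cpt2 L-/- livers were nearly alike for it. Slc22a7 (OAT2) changed by -2.77 (adjusted p = 0.00271) from low levels of 1.89 to 6.97 CPM. The anion carrier Slco1a4 changed by -1.97 (adjusted p = 0.0319), a call that was lost in 4 of 8 fits with 1 library left out (ffff238, ffff242, Cpt2166 or Cpt2802), and the prostaglandin carrier Slco2a1 by -0.96 (adjusted p = 4.18e-04). The anion carrier Slco2b1 at -0.06 (adjusted p = 0.756) and the organic cation carrier Slc22a3 at -0.27 (adjusted p = 0.688) were not called. Of the exonic bases of Slc22a3, 9.3% also belong to Plg on the other strand, which had a mean count of 25772.7. Slc22a3 had 36 to 325 counts per liver and the use of strand is not known, so its value is uncertain.

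On the canalicular membrane the bile salt pump Abcb11 and the phosphatidylcholine carrier Abcb4 moved in opposite directions. Abcb11 (ENSMUSG00000027048, chromosome 2 from 69238282 to 69342616, minus strand) had 255, 207, 341 and 328 CPM in ff;ff and 72.2, 42.1, 38.9 and 36.7 CPM in Cpt2 L-/- livers, a 5.99-fold fall (log2 fold change -2.58, SE 0.24, adjusted p = 1.58e-05). Abcb4 (ENSMUSG00000042476, chromosome 5 from 8893717 to 8959231, plus strand), which moves phosphatidylcholine into bile, had 344, 485, 433 and 435 CPM and 867, 653, 583 and 684 CPM, a rise of 0.71 (SE 0.17, adjusted p = 0.00921). Neither pair of groups overlapped. Atp8b1, a canalicular phospholipid flippase of the P4-ATPase family, fell by 1.0 on the log2 scale (adjusted p = 0.00205). Abcc2 at 0.34 (adjusted p = 0.321), Abcg2 (BCRP) at 0.61 (adjusted p = 0.0825), Abcb1a at 0.49 (adjusted p = 0.205) and Abcb1b at 0.02 (adjusted p = 0.984), both drug pumps of the P-glycoprotein type, were not called.

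Among the exporters to blood, Abcc3 (MRP3; ENSMUSG00000020865, chromosome 11 from 94343295 to 94392997, minus strand) was called higher at 0.79 (SE 0.27, adjusted p = 0.0489). Its values were 222, 427, 375 and 259.9 CPM in ff;ff and 849, 501, 380.1 and 512 CPM in Cpt2 L-/- livers, so the groups overlapped, and the call was lost in 6 of 8 fits with 1 library left out (each except those without ffff240 and without Cpt2801) and with DESeq2 size factors or a stricter filter on counts. Abcc4 (MRP4; ENSMUSG00000032849, chromosome 14 from 118482692 to 118706219, minus strand) had 3.23, 3.84, 4.53 and 3.68 CPM and 3.97, 4.60, 2.85 and 4.75 CPM, with no call at 0.07 (adjusted p = 0.873). Abcc6, a pump tied to ATP release, at -0.39 (adjusted p = 0.171) and the broadly expressed pump Abcc1 at 0.04 (adjusted p = 0.950) were not called either.

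Nr0b2 (ENSMUSG00000037583, chromosome 4 from 133553376 to 133556536, plus strand), the repressor induced by Nr1h4, was at 8.82, 13.0, 40.3 and 23.4 CPM in ff;ff and 2.37, 0.881, 1.23 and 1.12 CPM in Cpt2 L-/- livers, a 15.3-fold fall (log2 fold change -3.94, SE 0.53, adjusted p = 5.05e-04) between groups that did not overlap. Nr1h4 itself (ENSMUSG00000047638, chromosome 10 from 89454234 to 89533585, minus strand) was at 151, 154, 106 and 145 CPM and 127, 136, 142 and 118 CPM and had no call at -0.10 (adjusted p = 0.684), with an interval of -0.41 to 0.22. Thus the transcript of the repressor and that of the enzyme it represses, Cyp7a1, were both lower in Cpt2 L-/- livers. Nr5a2 changed by -0.61 (adjusted p = 0.0149) and lost its call without the library Cpt2802. Fgfr4 changed by -1.05 (adjusted p = 0.00139), while its coreceptor Klb was not called at -0.35 (adjusted p = 0.182).

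**Figure D2:**
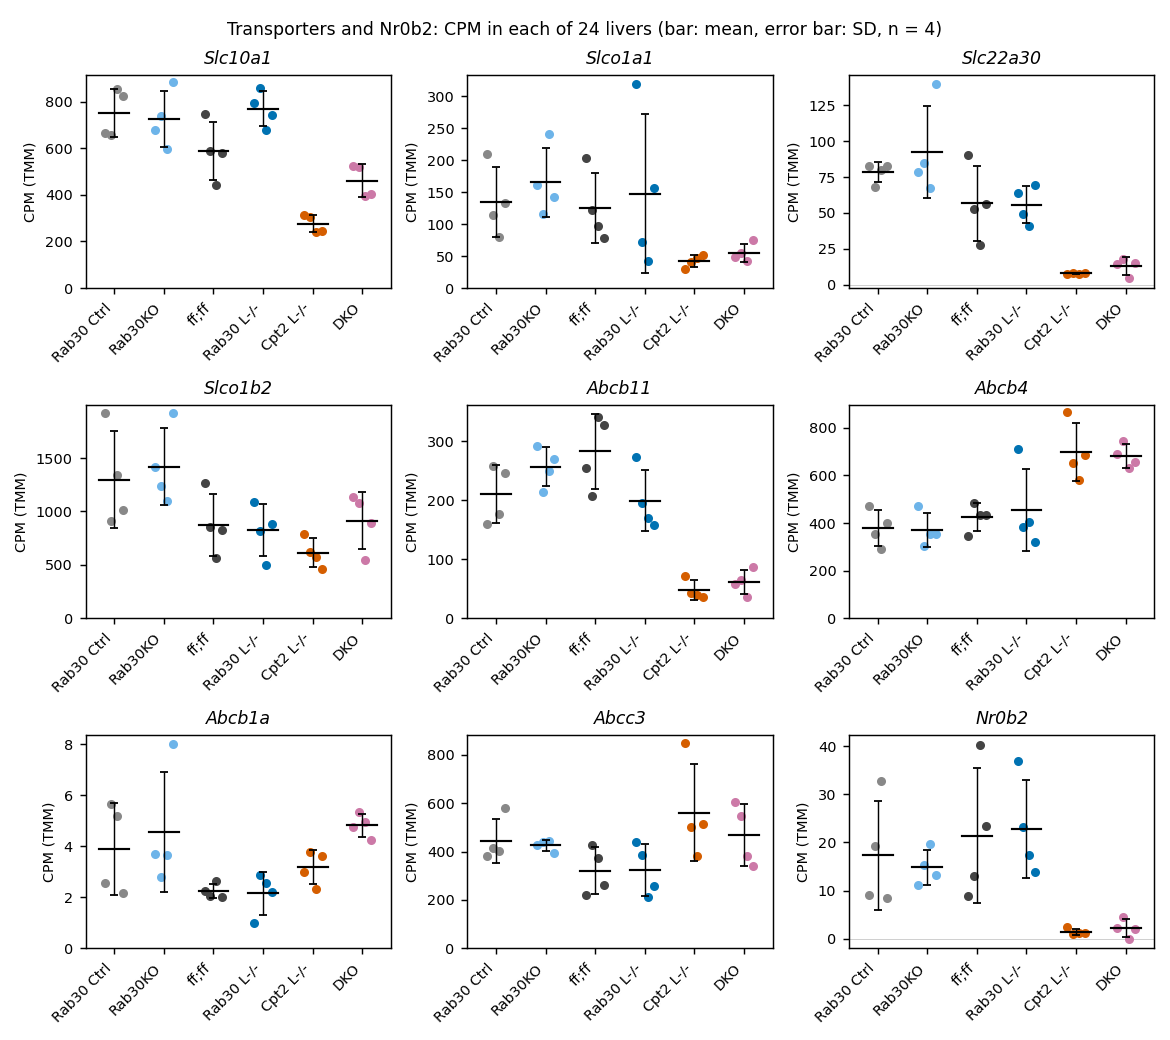
CPM scaled by TMM (linear axes) of 8 transporters and Nr0b2 in the 6 genotype groups, drawn with a point for each of 4 livers, a bar at the mean and an error bar of 1 SD. Abcb11 lies at 36.7 to 72.2 CPM in Cpt2 L-/- and 36.0 to 86.6 CPM in DKO livers, below the 207 to 341 CPM of ff;ff, while Abcb4 lies above ff;ff in both.

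DKO livers were compared with the same ff;ff livers, so the values below share their controls with those above. Of 34 genes tested, 13 fell and 2 rose, with a median log2 fold change of -0.53. Over all 13389 genes tested, 8.24% were called lower and 7.87% called higher. The fallers were 4 of 9 synthesis genes, 5 of 9 uptake genes, 2 of 7 canalicular genes and 2 of 5 regulators, and both risers were canalicular.

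Nr0b2 showed the largest fall, with 2.23, 4.58, 0 and 2.02 CPM in the DKO livers (log2 fold change -3.29, SE 0.88, adjusted p = 0.0437), where 1 liver had no read on the gene. This call was lost in 5 of 8 fits with 1 library left out (DKO232, DKO943, ffff240, ffff242 or ffff248), over which the log2 fold change ran from -3.90 to -2.78. The lowest value, -3.90, came without DKO233. Abcb11 at 57.9, 65.6, 36.0 and 86.6 CPM (log2 fold change -2.21, SE 0.25, adjusted p = 2.34e-04) and Slc22a30 at 14.1, 18.1, 4.42 and 15.3 CPM (log2 fold change -2.13, SE 0.46, adjusted p = 0.0154) followed. All 3 genes were lower in every DKO liver than in any ff;ff liver, in a comparison where 20.5% of all genes did not overlap.

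Of the synthesis genes, Akr1d1 at 33.6, 67.0, 66.3 and 47.5 CPM (log2 fold change -2.09, SE 0.22, adjusted p = 1.06e-04), Cyp7b1 at 58.6, 59.0, 35.8 and 101 CPM (log2 fold change -1.89, SE 0.38, adjusted p = 0.00849), Slc27a5 (log2 fold change -0.96, adjusted p = 0.00204) and Baat (log2 fold change -0.64, adjusted p = 0.0400) were called lower. Baat lost its call in 6 of 8 fits with 1 library left out, all but those without DKO943 or ffff242. Cyp7a1 at 44.1, 16.5, 72.5 and 90.4 CPM overlapped ff;ff and was not called (log2 fold change -1.43, adjusted p = 0.211, interval -3.01 to 0.16). Cyp27a1 at 421, 422, 542 and 483 CPM (log2 fold change -0.46, adjusted p = 0.0833) and Cyp39a1 (log2 fold change -0.85, adjusted p = 0.0778) were below ff;ff in every liver, like the 20.5% of all genes without overlap, and did not pass the test. Cyp8b1 at 940.0, 702, 506 and 589 CPM had no call (log2 fold change -0.07, adjusted p = 0.897), nor did Hsd3b7 (log2 fold change -1.61, adjusted p = 0.160).

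Among the carriers, Slco1a1 at 49.2, 54.1, 41.8 and 74.4 CPM (log2 fold change -1.19, SE 0.28, adjusted p = 0.0158, or 0.0837 and no call with all 24 libraries in 1 fit), Slco1a4 (log2 fold change -2.00, adjusted p = 0.00993), Slco2a1 (log2 fold change -0.55, adjusted p = 0.0223) and Slc22a7 (log2 fold change -1.84, adjusted p = 0.0348) fell beside Slc22a30. Slc22a7 lost its call in 5 of 8 fits with 1 library left out (DKO232, DKO233, DKO247, ffff238 or ffff242) and Slco2a1 in 4 (DKO232, DKO247, ffff240 or ffff248). Slc10a1 at 524, 522, 394 and 405 CPM overlapped ff;ff and was not called (log2 fold change -0.36, adjusted p = 0.217, interval -0.76 to 0.04). Slco1b2 at 1135, 1079, 542 and 893 CPM was not called (log2 fold change 0.05, adjusted p = 0.924). The 2 risers were Abcb4 at 692, 745, 629 and 655 CPM (log2 fold change 0.67, SE 0.15, adjusted p = 0.0113) and Abcb1a, which went from 2.27, 2.07, 2.65 and 2.03 CPM in ff;ff to 4.75, 5.36, 4.94 and 4.27 CPM (log2 fold change 1.09, SE 0.23, adjusted p = 0.00709). Atp8b1 was called at -0.57 (adjusted p = 0.0499) and lost its call in 6 of 8 fits with 1 library left out, all but those without ffff240 or ffff242. Abcc3 at 605, 545, 381 and 342 CPM (log2 fold change 0.54, adjusted p = 0.169) and Abcc4 at 2.16, 3.74, 5.14 and 2.49 CPM (log2 fold change -0.19, adjusted p = 0.727) overlapped ff;ff. Of the receptors, Fgfr4 fell (log2 fold change -0.94, adjusted p = 0.00237), and Nr1h4 at 154, 161, 166 and 173 CPM was not called (log2 fold change 0.23, adjusted p = 0.326).

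DKO livers were set against Rab30 L-/- livers to ask what Cpt2 loss did where Rab30 was deleted in both groups. This comparison shares no library with that of Cpt2 L-/- and ff;ff. Of 33 genes tested, 15 fell and 3 rose, with a median log2 fold change of -0.52, where 15.8% of all 13292 genes tested were called lower and 14.9% called higher. The fallers were 5 of 8 synthesis genes tested, 5 of 9 uptake genes, 1 of 4 exporters, 1 of 7 canalicular genes and 3 of 5 regulators. Of the genes called lower, 13 were so in both comparisons, which is 72.2% of the 18 in Cpt2 L-/- against ff;ff and 86.7% of the 15 here. Over all genes tested in both, 870 were called lower in both, 55.9% and 42.6% of the respective lists. None of the 2 and 3 risers was shared, while over all genes 814 were called higher in both, 53.3% and 41.2% of the lists.

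Rab30 L-/- livers had 144, 291, 219 and 225 CPM of Akr1d1 (log2 fold change -2.03, SE 0.26, adjusted p = 3.58e-04 in DKO), 274, 194, 170.5 and 158 CPM of Abcb11 (log2 fold change -1.70, SE 0.26, adjusted p = 0.00119) and 36.8, 23.2, 17.4 and 13.8 CPM of Nr0b2 (log2 fold change -3.37, SE 0.78, adjusted p = 0.0156). The DKO values given above lay below all of these, in a comparison where the groups did not overlap for 31.5% of all genes. Cyp7a1 was at 137, 196, 272 and 359.9 CPM in Rab30 L-/- and lower in every DKO liver (log2 fold change -2.11, SE 0.53, adjusted p = 0.0211). The calls of Nr0b2 and Cyp7a1 were both lost without the library DKO232. Without DKO233 the log2 fold change of Nr0b2 was -3.97. Cyp7b1 was uneven in Rab30 L-/- livers, at 742, 184, 65.6 and 456 CPM, and its call (log2 fold change -2.52, SE 0.76, adjusted p = 0.0449) was lost in 7 of 8 fits with 1 library left out, all but that without Rab30cff979. Its log2 fold change ran from -2.87 to -1.89, the smallest fall being -1.89 without Rab30cff741. Slc27a5 changed by -0.98 (adjusted p = 8.26e-04) and Baat by -0.52 (adjusted p = 0.0376), the latter losing its call in 6 of 8 such fits, all but those without Rab30cff979 or DKO943.

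Slc10a1 had 796, 858, 680.5 and 745 CPM in Rab30 L-/- livers and was called lower in DKO (log2 fold change -0.74, SE 0.16, adjusted p = 0.00485) with no overlap. Slc22a30 at 63.6, 49.2, 41.2 and 69.2 CPM (log2 fold change -2.10, adjusted p = 0.00436), Slc22a7 (log2 fold change -3.04, adjusted p = 0.0185), Slco1a4 (log2 fold change -1.81, adjusted p = 3.60e-04) and Slco2a1 (log2 fold change -0.75, adjusted p = 0.00172) were lower in DKO too. Slc22a7 lost its call without DKO232 or DKO233. Slco1a1 was uneven in Rab30 L-/- livers, at 319, 71.3, 42.6 and 156 CPM, and was not called (log2 fold change -1.43, adjusted p = 0.127). Slco1b2 at 1093, 816, 502 and 887 CPM had no call (log2 fold change 0.14, adjusted p = 0.728), with an interval of -0.46 to 0.75.

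The risers were Abcc4, Abcb1a and Abcg2. Abcc4 had 0.830, 1.90, 1.72 and 0.607 CPM in Rab30 L-/-, below every DKO liver (log2 fold change 1.40, SE 0.41, adjusted p = 0.0224), and lost its call without Rab30cff741, Rab30cff980 or DKO247. The mean of Abcc4 was 1.26 CPM in Rab30 L-/- livers, from 8 to 41 reads. It was 3.38 in DKO, 3.82 in ff;ff and 4.04 in Cpt2 L-/- livers. Abcb1a had 0.981, 2.89, 2.56 and 2.20 CPM (log2 fold change 1.16, SE 0.29, adjusted p = 0.0120), and Abcg2 changed by 1.0 (adjusted p = 0.0103). Abcb4 at 710.1, 381, 405 and 322 CPM did not pass (log2 fold change 0.58, adjusted p = 0.0743), and the library Rab30cff741 lay within the range of the DKO livers. Abcc3 at 441, 384, 210.4 and 256 CPM was not called (log2 fold change 0.54, adjusted p = 0.157), and Abcc6 was lower (log2 fold change -0.71, adjusted p = 0.0117). Fgfr4 fell (log2 fold change -1.07, adjusted p = 9.57e-05), as did Klb (log2 fold change -0.85, adjusted p = 0.0328, lost in 6 of 8 fits with 1 library left out, all but those without DKO232 or DKO233). Cyp8b1 at 1087, 867, 740.2 and 728 CPM (log2 fold change -0.32, adjusted p = 0.280), Cyp27a1 at 669, 456, 311 and 526 CPM (log2 fold change -0.07, adjusted p = 0.827) and Nr1h4 at 136, 163, 138 and 155 CPM (log2 fold change 0.14, adjusted p = 0.362) were not called.

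**Figure D3:**
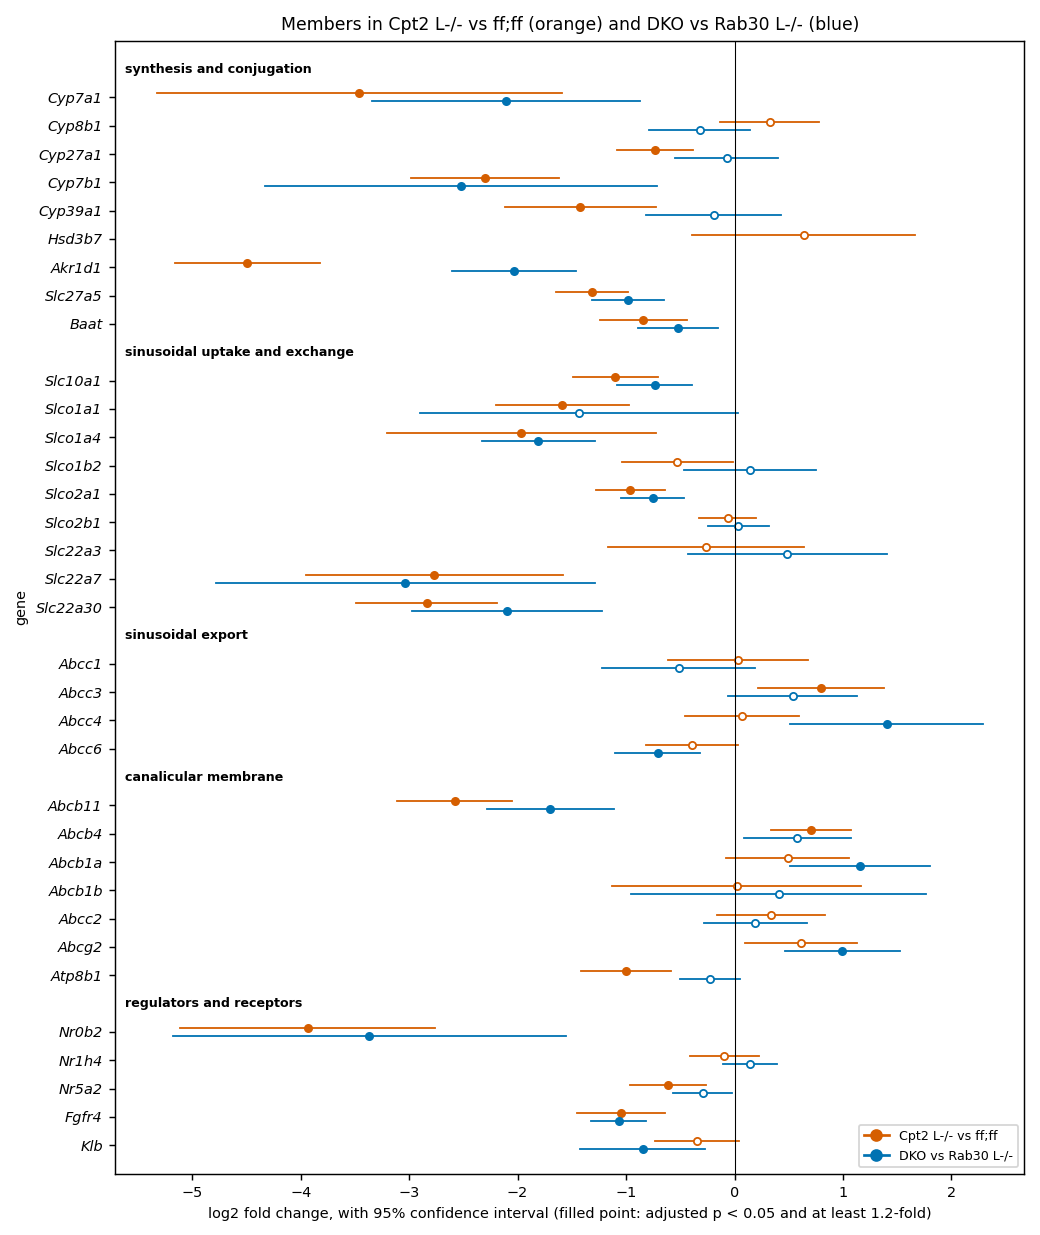
Log2 fold change (horizontal axis) with its 95% confidence interval for each tested gene, ordered by role, in Cpt2 L-/- against ff;ff (orange) and DKO against Rab30 L-/- (blue), with filled points for genes called. Akr1d1 sits at -4.49 and -2.03 with intervals that do not meet, Nr0b2 at -3.94 and -3.37, and Cyp8b1 at 0.32 and -0.32 without a call.

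DKO and Cpt2 L-/- livers, which differ in Rab30 in the absence of Cpt2, were compared next. Of 34 genes tested 2 rose and none fell, with a median log2 fold change of 0.34, where 2.71% of all 13306 genes were called in either direction. Akr1d1 was higher in every DKO liver (33.6, 67.0, 66.3 and 47.5 CPM) than in any Cpt2 L-/- liver (14.1, 13.8, 7.06 and 5.62 CPM), by 5.30-fold (log2 fold change 2.41, SE 0.34, adjusted p = 0.0113). Its mean of 53.6 ± 16.1 CPM (SD, n = 4) in DKO stayed below the 227 ± 34.9 CPM of ff;ff. The call was kept with each library left out in turn. Of the 6 hepatocyte markers 4 had positive and 2 negative log2 fold changes here (median 0.16, 0 called by edgeR, 2 at an unadjusted p under 0.05). Alb, which made up most of their sum, lay higher in each DKO liver than in any Cpt2 L-/- liver (log2 fold change 0.55, adjusted p = 0.0754) and Apoa1 lower (log2 fold change -0.56, adjusted p = 0.0684), and the part of these shifts in the difference was not tested. Slc10a1 was likewise higher in every DKO liver (524, 522, 394 and 405 CPM against 314, 305, 243 and 245 CPM), by 1.68-fold (log2 fold change 0.75, SE 0.15, adjusted p = 0.0308). That call was lost in 5 of 8 fits with 1 library left out (DKO232, DKO233, Cpt2166, Cpt2801 or Cpt2802), the log2 fold change running from 0.68 to 0.81 and the adjusted p from 0.0241 to 0.113.

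No other gene passed edgeR's test in DKO against Cpt2 L-/-, where DESeq2's Wald test called 6 of the genes and limma-voom 7. An unadjusted p under 0.05 was found for 11 of 34, beside 2884 of all 13306 genes. Cyp7a1 was among them at 2.03 (adjusted p = 0.163), with a wide interval of 0.37 to 3.68 and overlapping groups. Cyp27a1 (log2 fold change 0.28, adjusted p = 0.246), Slc27a5 (log2 fold change 0.36, adjusted p = 0.121), Slco2b1 (log2 fold change 0.35, adjusted p = 0.111), Abcb1a (log2 fold change 0.60, adjusted p = 0.136) and Nr1h4 (log2 fold change 0.33, adjusted p = 0.107) were higher in every DKO liver than in any Cpt2 L-/- liver without passing, and the groups did not overlap for 13% of all genes. Hsd3b7, with few reads, stood at -2.25 (adjusted p = 0.101). The bile salt pump Abcb11 (log2 fold change 0.38, adjusted p = 0.468, interval -0.25 to 1.01), Nr0b2 (log2 fold change 0.66, adjusted p = 0.669, interval -1.10 to 2.43) and Cyp7b1 (log2 fold change 0.41, adjusted p = 0.433) were not called.

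Whether the effect of Rab30 differed with the state of Cpt2 was tested as an interaction over the 16 livers of the groups with floxed alleles, by subtracting the Rab30 effect seen with Cpt2 (Rab30 L-/- against ff;ff) from that seen without it (DKO against Cpt2 L-/-). Akr1d1 alone among 34 genes was called, at 2.46 (SE 0.41, adjusted p = 0.00330), where 4.06% of all 14063 genes tested were called in either direction. In the same test 1 of 6 hepatocyte markers, Alb, was called higher (log2 fold change 1.04, adjusted p = 0.0215), named after its value was seen. Of the 6, 5 had positive values (median 0.40, from -0.72 for Apoa1 to 1.64 for Tat) and 3 had an unadjusted p under 0.05. The change of Akr1d1 with Rab30 was 2.41 without Cpt2 and -0.06 with Cpt2. For Slc10a1 the interaction was 0.37 (adjusted p = 0.384), so its difference between DKO and Cpt2 L-/- was not shown to depend on Cpt2. At an unadjusted p under 0.05 there were 6 of the 34 genes, Akr1d1 with Cyp27a1, Cyp39a1, Abcc4, Abcb11 and Atp8b1. Of those not called, Atp8b1 came nearest to a call (log2 fold change 0.78, adjusted p = 0.0665). The number of all genes at that level was not counted here, so these 6 cannot be set against it.

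In livers with Cpt2, Rab30 L-/- was compared with ff;ff. edgeR called none of 34 genes, where 0.479% of all 13367 genes were called in either direction. The median log2 fold change was -0.00. At an unadjusted p under 0.05, 3 of the 34 changed at least 1.2-fold, and 1497 of all genes had such a p at any size of change. DESeq2's Wald test and limma-voom called 1 each, which was Abcc4. Abcc4 was lower in every Rab30 L-/- liver (0.830, 1.90, 1.72 and 0.607 CPM) than in any ff;ff liver (3.23, 3.84, 4.53 and 3.68 CPM), at -1.59 (SE 0.36, adjusted p = 0.100) in edgeR, in a comparison where 6.38% of all genes did not overlap. The other genes at an unadjusted p under 0.05 were Abcb11 (log2 fold change -0.51, adjusted p = 0.399) and Klb (log2 fold change 0.35, adjusted p = 0.329). Akr1d1 (log2 fold change -0.06, adjusted p = 0.950, interval -0.50 to 0.39), Slc10a1 (log2 fold change 0.38, adjusted p = 0.462, interval -0.01 to 0.78) and Cyp7a1 (log2 fold change 0.68, adjusted p = 0.691, interval -0.55 to 1.92) were not called.

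Whole-body Rab30KO livers were compared with Rab30 Ctrl. edgeR called none of 33 genes, and neither DESeq2's Wald test nor limma-voom called any (0 each), where 0.022% of all 13656 genes were called in either direction. At an unadjusted p under 0.05, 0 of the 33 changed at least 1.2-fold, and 302 of all genes had such a p at any size of change. The log2 fold changes of the 33 genes ran from -0.62 for Abcb1b to 0.57 for Abcc1. Cyp7a1 had 247, 434, 174 and 448 CPM in Rab30 Ctrl and 611, 506, 163 and 490.5 CPM in Rab30KO livers (0.44, interval -0.50 to 1.37), and Akr1d1 had 288, 342, 398 and 301 against 221, 337, 269 and 629 CPM (0.13, interval -0.50 to 0.76). Both genes varied widely among livers of 1 genotype.

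Of the other enzymes, Cyp8b1 had 753, 763, 433 and 718 CPM in Rab30 Ctrl and 829.9, 696, 728 and 609 in Rab30KO, Cyp27a1 had 419, 640.1, 434 and 785 against 718, 679.5, 592 and 422. Cyp7b1 had 184, 111, 55.3 and 216 against 267, 226, 216 and 91.9 CPM in the same order. All 3 overlapped between the genotypes. Baat ran from 277 to 337 CPM in Rab30 Ctrl and 342 to 392 in Rab30KO without overlap and was not called (log2 fold change 0.19, adjusted p = 1.0), in a comparison where 1.31% of all genes did not overlap. Slc10a1 had 664, 659, 855 and 825 CPM in Rab30 Ctrl and 679.9, 740.1, 599 and 884 in Rab30KO (-0.05, interval -0.44 to 0.33). Slco1a1 had 209, 113, 80.0 and 134 against 162, 115, 241 and 142 CPM. Slco1b2 had 1926, 909.9, 1341 and 1018 against 1414, 1235, 1099 and 1927 CPM, and Slc22a30 had 82.9, 67.9, 80.3 and 83.1 against 78.6, 84.7, 67.1 and 139.8. None of the uptake genes separated the genotypes.

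Abcb11 had 161, 259, 177 and 246 CPM in Rab30 Ctrl and 292, 214, 249.6 and 270.1 in Rab30KO (0.28, interval -0.13 to 0.69). Abcb4 had 469.7, 355, 290.4 and 401 against 471, 302, 356 and 353 CPM, and Abcb1a had 2.55, 5.68, 5.18 and 2.17 against 3.71, 2.81, 3.68 and 8.02. Abcc3 had 381, 416, 401 and 579 against 426, 439.7, 443 and 393 CPM, and Abcc4 had 3.71, 4.99, 4.68 and 3.39 against 3.95, 3.72, 5.34 and 5.17. The genotypes overlapped for each of these pumps, and Abcc4 was not called (log2 fold change 0.11, adjusted p = 1.0). Nr0b2 had 9.10, 19.2, 32.7 and 8.54 against 11.2, 15.2, 19.6 and 13.1 CPM, and Nr1h4 had 180.5, 154, 162 and 175 against 136, 186, 131 and 179, both overlapping.

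**Figure D4:**
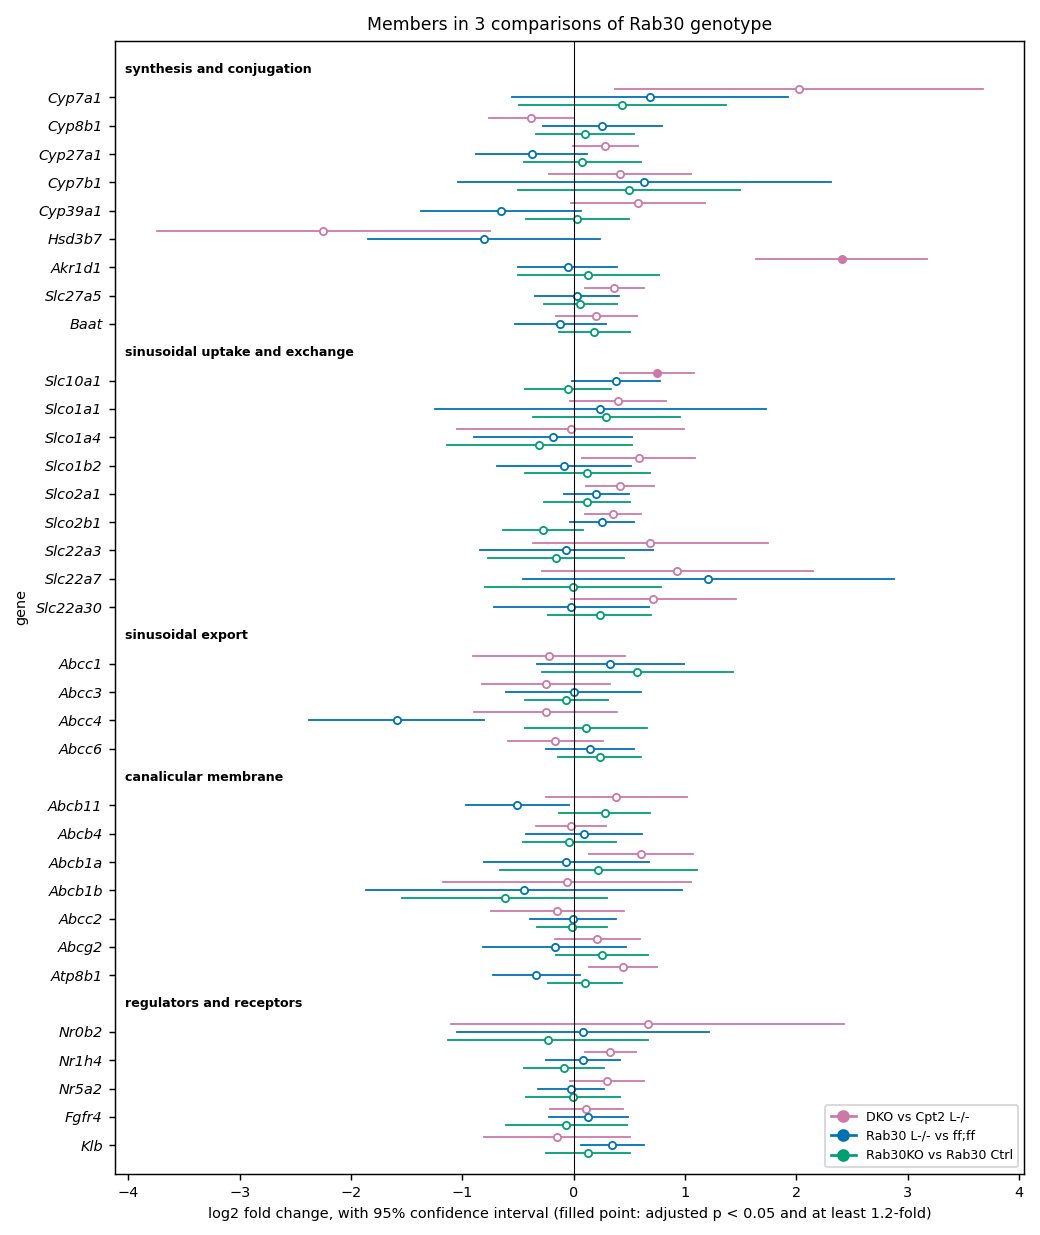
Log2 fold change (horizontal axis) with its 95% confidence interval for each tested gene, ordered by role, in DKO against Cpt2 L-/- (pink), Rab30 L-/- against ff;ff (blue) and Rab30KO against Rab30 Ctrl (green), with filled points for genes called. Akr1d1 at 2.41 and Slc10a1 at 0.75 in DKO against Cpt2 L-/- are the only filled points.

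Further genes of the pathway, listed by function, were counted beside the 36. Of 13 further bile acid enzymes tested, 4 rose and 5 fell in Cpt2 L-/- against ff;ff, 2 rose and 4 fell in DKO against ff;ff, and 3 rose and 4 fell in DKO against Rab30 L-/-. The shares of all genes called higher and lower were 11.9% and 11.9% in Cpt2 L-/- against ff;ff, 7.87% and 8.24% in DKO against ff;ff, and 14.9% and 15.8% in DKO against Rab30 L-/-. The falls past the test in both comparisons that share no library were led by Cyp2c70, the enzyme that makes mouse muricholic acids (log2 fold change -4.25, adjusted p = 0.00361 in Cpt2 L-/- against ff;ff and -2.65 (adjusted p = 0.0350) in DKO against Rab30 L-/-), and Akr1c6, a hydroxysteroid dehydrogenase (log2 fold change -2.73, adjusted p = 7.65e-04 and -2.41 (adjusted p = 1.42e-04)). The rises were led by Fgf21, a fasting hormone in the regulator list (log2 fold change 2.73, adjusted p = 0.0108 and 3.13 (adjusted p = 0.00208)), and the carnitine carrier Slc22a5 in the transporter list (log2 fold change 0.90, adjusted p = 8.38e-04 and 1.38 (adjusted p = 1.45e-04)). Of 13 further transporters tested in each, 1 rose and 5 fell in Cpt2 L-/- against ff;ff, 1 rose and 0 fell in DKO against ff;ff, and 1 rose and 0 fell in DKO against Rab30 L-/-. At an unadjusted p under 0.05, 7, 2 and 4 changed at least 1.2-fold in either direction. Over all genes, 4733 of 13270, 3977 of 13389 and 5532 of 13292 had such a p at any size of change.

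Of 15 further regulators, 3 rose and 1 fell in Cpt2 L-/- against ff;ff, 1 rose and 2 fell in DKO against ff;ff, and 1 rose and 7 fell in DKO against Rab30 L-/-, where 23.8%, 16.1% and 30.7% of all genes were called in either direction. In DKO against Cpt2 L-/- the 13 enzymes, 13 transporters and 15 regulators tested gave 2 calls, where 2.71% of all genes were called in either direction. These were the bile acid hydroxylase Cyp3a11 higher (log2 fold change 1.76, adjusted p = 2.54e-04) and the clock repressor Nr1d1 lower (log2 fold change -1.22, adjusted p = 0.0147), named after their values were seen. In the interaction 2.2% of all genes were called higher and 1.86% lower. There 1 of 13 enzymes was called higher, Cyp3a11 (log2 fold change 3.45, adjusted p = 6.67e-05), and 3 of 15 regulators lower, Nr1d1 (log2 fold change -2.47, adjusted p = 7.60e-04), the xenobiotic receptor Nr1i3 (log2 fold change -1.83, adjusted p = 0.0142) and the hepatocyte factor Foxa2 (log2 fold change -1.10, adjusted p = 0.0440), again named after their values were seen. edgeR called none of the enzymes, transporters and regulators in Rab30 L-/- against ff;ff, where 2, 2 and 3 had an unadjusted p under 0.05, or in Rab30KO against Rab30 Ctrl, where 1, 0 and 0 had.

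Markers of the cell types in liver moved with the loss of Cpt2 as follows. Of 6 hepatocyte markers, 4 fell in Cpt2 L-/- against ff;ff, 3 in DKO against ff;ff and 3 in DKO against Rab30 L-/-. Beside this and the marker lists that follow, 11.9% of all genes were called higher and 11.9% lower in Cpt2 L-/- against ff;ff. The shares were 7.87% and 8.24% in DKO against ff;ff, and 14.9% and 15.8% in DKO against Rab30 L-/-. Bile duct markers, whose cells also express transporters of this kind, summed to 15.5 to 32.9 CPM in ff;ff, 9.69 to 24.7 in Cpt2 L-/-, 12.3 to 21.4 in DKO and 18.5 to 33.6 in Rab30 L-/- livers, and of the 8 only 4, 5 and 3 could be tested in the same 3 comparisons, with 1 falling in each. Kupffer cell and macrophage markers summed to 169 to 306 CPM in ff;ff and 177 to 238 in Cpt2 L-/-, with 1 of 8 higher and 3 lower. In DKO against Rab30 L-/- 1 was higher and 6 lower, at sums of 163 to 217 and 218 to 644 CPM.

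Endothelial markers summed to 284 to 438 CPM in ff;ff and 282 to 344 in Cpt2 L-/- livers, with 1 of 8 lower, beside 11.9% of all genes. In DKO against Rab30 L-/- 2 of 8 were higher, beside 14.9% of all genes. Stellate cell markers summed to 176 to 299.7 CPM in ff;ff and 286 to 316 in Cpt2 L-/- livers. edgeR called 0 of 8 in Cpt2 L-/- against ff;ff and in DKO against Rab30 L-/- (2 at an unadjusted p under 0.05 in each). Over all genes, 4733 of 13270 and 5532 of 13292 had such a p at any size of change. Lymphocyte and neutrophil markers summed to 5.79 to 11.1 CPM in ff;ff and 6.18 to 8.26 in Cpt2 L-/- livers. Of these, 1 of 7 could be tested in each comparison and 0 were called by edgeR (0 at an unadjusted p under 0.05). Red cell markers summed to 209.6 to 630.3 CPM in ff;ff and 87.1 to 165 in Cpt2 L-/- livers, with 4 of 5 lower in Cpt2 L-/- than in ff;ff. In DKO against Rab30 L-/- 1 of 5 was higher and 1 lower, at sums of 124 to 408 and 266 to 638 CPM. edgeR called no marker of any list in DKO against Cpt2 L-/-, Rab30 L-/- against ff;ff or Rab30KO against Rab30 Ctrl, and in the interaction it called Alb alone. The shares of all genes called in either direction were 2.71%, 0.479%, 0.022% and 4.06% in that order. No marker was at 0 in every library. In the interaction all 8 Kupffer markers were negative (median -0.75) and all 8 endothelial markers positive (median 0.54). An unadjusted p under 0.05 was found there for 3 of each of these lists, 3 hepatocyte, 2 stellate, 1 lymphocyte and neutrophil and 1 red cell marker. The number of all genes at that level was not counted for the interaction. In Rab30 L-/- against ff;ff all 8 Kupffer cell and macrophage markers had positive log2 fold changes (median 0.72) and all 8 endothelial markers negative ones (median -0.42), with 3 of each at an unadjusted p under 0.05, as were 2 hepatocyte, 2 stellate and 1 red cell marker. Over all 13367 genes, 1497 had such a p at any size of change. In DKO against Cpt2 L-/- the hepatocyte, Kupffer, stellate and red cell lists had 2 each at that level and the other lists 0, beside 2884 of all 13306 genes at any size of change. In Rab30KO against Rab30 Ctrl no list had any (0 in each, beside 302 of all 13656 genes at any size of change), and all 8 Kupffer markers had positive log2 fold changes (median 0.43). The part of these shifts in the values of the 36 genes was not tested.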

How the data were processed

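Liver RNA was sequenced from 24 fasted male mice, 4 in each of 6 genotype groups taken from the sample labels. The authors deposited raw read counts per gene, as whole numbers without normalization, and FPKM values, which divide those counts by gene length and library size. The processing notes name HISAT2, DESeq2 and the builds GRCm38 and mm10. The counter and the use of strand are not given in the sources used here, so overlapping genes and close paralogs are uncertain. The authors' normalized count table and their tables of log2 fold changes and p-values for pairs of groups were not used.

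Counts were joined to FPKM by gene identifier. The test was edgeR 4.0.16's quasi-likelihood test with robust estimation in R 4.3.3, after filterByExpr and TMM scaling, run for each comparison on the 8 libraries compared (16 for the interaction). P-values are two-sided and Benjamini-Hochberg adjusted over all genes tested. A gene was called at an adjusted p under 0.05 and a change of at least 1.2-fold. Counts of listed genes and markers at an unadjusted p under 0.05 also required a 1.2-fold change. Counts of all genes at that level did not. Printed CPM values are scaled by TMM over all 24 libraries, while fold changes come from each fit. Reads carry no molecular identifiers, and depth limits genes of a few CPM. Simulated counts used to check the code were drawn from dispersions fitted by edgeR, so they do not show how the test behaves on these livers. Alternatives were DESeq2 1.42.0 size factors and its Wald test, limma-voom (limma 3.58.1), 1 fit of all 24 libraries, 2 other filters and each library left out in turn.

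The 36 genes, the further pathway lists and the cell type markers were chosen with earlier results of these data known. Every gene found was named. Values in each library were given for defining genes of each role, for genes called in a comparison of Rab30 genotype or the interaction, and for the 3 largest rises and 3 largest falls among genes called in Cpt2 L-/- and in DKO against ff;ff. Of the further lists, the 2 largest rises and falls past the test in both comparisons of Cpt2 without shared libraries were named. Start regions are from RefSeq.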

Additional observations from a re-analysis of the deposited data

Results flagged for a closer look

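Akr1d1 changed differently with Rab30 where Cpt2 was absent and where it was present, with an interaction of 2.46 on the log2 scale (edgeR's quasi-likelihood test over 16 libraries, adjusted p = 0.0033).

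Single livers stood apart from the other 3 of their group in 11 of 204 sets of 4 values, over 34 genes, by Dixon's ratio, which chance alone passes in about 1 of 20. Among the enzymes, Cyp8b1 was at 433 CPM in the Rab30 Ctrl library WT281 against 718 to 763 in the others, and Baat in the same library at 277 against 328 to 337. Cyp27a1 was at 318 CPM in the Cpt2 L-/- library Cpt2802 against 402 to 416. Cyp39a1 was at 188 CPM in the ff;ff library ffff242 against 85.1 to 87.4. Hsd3b7 was at 0.759 CPM in the Rab30 L-/- library Rab30cff980 against 0.495 to 0.528, at 0.976 in the DKO library DKO247 against 0.0645 to 0.141, and at 0.262 in the ff;ff library ffff238 against 1.14 to 1.25.

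Among the transporters and receptors, Slc22a7 was at 7.12 CPM in the Rab30 Ctrl library WT221 against 2.84 to 3.54 in the other 3. Abcc6 was at 259 CPM in the Rab30KO library KO4 against 295 to 302, and Klb at 56.4 CPM in the Rab30KO library KO1 against 36.3 to 38.2. Abcb11 was at 72.2 CPM in the Cpt2 L-/- library Cpt2164 against 36.7 to 42.1.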

How the results depend on the processing

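Of 56 calls of single genes over the 7 comparisons, 43 were kept in every other setting that tested the gene, 34 were kept in these and with each library left out, and 0 reversed. There were 6 other settings, of which at least 10 counts in every library left Slc22a7 and Nr0b2 and Abcc4 untested in some comparisons. The number of genes called stayed within 1.5 times the reported one in Cpt2 L-/- against ff;ff, DKO against ff;ff and DKO against Rab30 L-/- under each setting and with each library left out. In DKO against Cpt2 L-/- it went from 2 to 6 with DESeq2's Wald test and 7 with limma-voom, and from 1 to 5 with a library left out, 5 being without DKO247. In Rab30 L-/- against ff;ff it went from 0 to 1, which was Abcc4, with DESeq2's Wald test, limma-voom, all 24 libraries in 1 fit and no filter on low counts. In the interaction it went from 1 to 2, adding Atp8b1, with DESeq2's Wald test and between 1 and 2 with a library left out (2 without ffff242). The cause was not tested. In Rab30KO against Rab30 Ctrl it was 0 in each setting. No paired analysis was possible because the labels give the groups no shared replicate numbers. Calls were lost without a filter on low counts for Cyp39a1 and Slco1a4 in Cpt2 L-/- against ff;ff, for Cyp7b1, Slco1a4, Slc22a30 and Nr0b2 in DKO against ff;ff, and for Cyp7a1, Cyp7b1, Slc22a7 and Klb in DKO against Rab30 L-/-. Abcc3 in Cpt2 L-/- and Atp8b1 in DKO lost theirs against ff;ff with DESeq2 size factors, Abcc3 also with at least 10 counts in every library, and Slco1a1 in DKO against ff;ff with all 24 libraries in 1 fit. Few reads limit the values of Hsd3b7, Abcb1b, Abcc1, Abcc4, Slc51a and Slc51b. The low count of Hsd3b7, which overlaps Gm49388, need not be its level.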
